A study of Homo sapiens with 14 samples.

Results

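The histone genes and the proteins that handle their transcripts and products were followed on expression arrays of 2 human prostate cancer cell lines. The members were all probes whose platform annotation names a clustered core histone gene (H2A, H2B, H3 or H4), a linker histone gene (H1), H2AX, H2AZ1, H2AZ2, H3-3A, H3-3B, SLBP, CHAF1A, CHAF1B or ASF1B. This gave 61 of the 47323 distinct probes on the array, covering 51 of the 12394 genes that a probe names alone. A further probe among the 61 is annotated to several H3 genes and was counted but not named. In all, 59 of the 61 probes passed the detection filter, which asked for a detection p-value under 0.05 on at least 2 arrays. The probes of H3C2 and H4C9 did not pass, as each was detected on 1 array. By role, the members comprised 46 core probes (39 genes, 44 probes passing) and 3 linker probes (H1-1, H1-2 and H1-10). The others were 7 probes of 5 variant genes (H2AX, H2AZ1, H2AZ2, H3-3A and H3-3B), and 5 probes of SLBP and the 3 chaperone genes. Of the 61 probes, 40 were detected on every array.

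The study asked how dilazep, a drug that inhibits adenosine transport into cells and widens blood vessels, acts on prostate cancer cells, with the transcription factor GATA2 as its stated target. LNCaP, an established androgen-sensitive line, was kept in medium with 10% fetal bovine serum. LNCaP-abl, its derivative selected for growth without androgen, was kept in phenol red-free medium with 10% charcoal-stripped serum, so line and serum cannot be told apart. For each line there were 3 arrays after 50 µM dilazep for 48 h, 2 arrays after H2O and 2 arrays after DMSO, 14 arrays in 6 groups. For the control arrays the labels mention bufalin where dilazep would stand, so these arrays may come from another experiment, and dilazep and experiment then cannot be told apart. The labels do not state whether replicates were grown as separate cultures, and the p-values therefore cover only the spread between these arrays, which may be technical.

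Core histones form the protein octamer around which DNA is wrapped, and linker histones bind the DNA where it enters and leaves that particle. Most core histone genes lie in clusters and are replication-dependent: they are transcribed mainly in S phase, and their mRNAs end in a stem-loop that SLBP binds, in place of a poly(A) tail. Variant genes such as H2AZ1 and H3-3B are expressed outside S phase as well and give ordinary polyadenylated mRNAs. The CAF-1 complex, with the subunits CHAF1A and CHAF1B, and the chaperone ASF1B place new H3 and H4 on replicated DNA. The labelling kit named in the labels starts amplification at poly(A) tails, and polyadenylated transcripts of clustered histone genes are known from cells that have left the cell cycle. Which form of transcript a core histone probe measured cannot be told apart here.

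A few short elements recur in the promoters of the members. Among genes on which the results turn, H2BC21 rose with dilazep in both lines, and H4C5 was called higher in LNCaP-abl only. H2BC11, H2AX and ASF1B fell, and H2BC8 separated the lines. The promoters of these 6 genes are shown. Each is the run of 250 bases before the RefSeq gene start (GRCh38.p14), written 5′ to 3′ on the gene's strand. Capitals mark matches, on either strand, to CCAAT (the CCAAT box), TATAAA (the TATA box), ATTTGCAT (the octamer, bound by POU2F1 at H2B promoters) and TTTGAA (the cell cycle homology region, CHR). Overlapping matches run together in capitals.
H2BC21 (chr1:149886683-149886932, minus strand): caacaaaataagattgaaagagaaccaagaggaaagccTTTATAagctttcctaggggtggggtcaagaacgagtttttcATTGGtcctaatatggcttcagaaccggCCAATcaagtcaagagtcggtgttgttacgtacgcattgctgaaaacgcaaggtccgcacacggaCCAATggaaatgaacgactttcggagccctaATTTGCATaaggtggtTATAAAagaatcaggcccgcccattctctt
H2BC8 (chr6:26216689-26216938, minus strand): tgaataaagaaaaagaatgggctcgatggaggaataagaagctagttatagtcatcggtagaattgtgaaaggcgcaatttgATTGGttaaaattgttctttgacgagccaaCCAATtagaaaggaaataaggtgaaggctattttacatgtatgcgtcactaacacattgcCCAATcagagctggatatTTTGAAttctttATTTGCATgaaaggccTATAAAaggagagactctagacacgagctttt
H2BC11 (chr6:27132796-27133045, minus strand): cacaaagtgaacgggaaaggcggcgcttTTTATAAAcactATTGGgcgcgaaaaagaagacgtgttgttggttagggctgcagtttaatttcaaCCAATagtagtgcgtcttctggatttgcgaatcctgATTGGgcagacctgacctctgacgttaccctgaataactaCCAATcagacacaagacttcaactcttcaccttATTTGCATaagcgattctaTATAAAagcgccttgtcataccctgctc
H4C5 (chr6:26204360-26204609, plus strand): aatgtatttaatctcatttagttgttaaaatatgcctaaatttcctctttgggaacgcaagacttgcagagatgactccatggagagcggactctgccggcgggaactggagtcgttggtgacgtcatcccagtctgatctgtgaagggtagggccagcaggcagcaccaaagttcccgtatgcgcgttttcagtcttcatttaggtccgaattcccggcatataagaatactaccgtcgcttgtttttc
H2AX (chr11:119095466-119095715, minus strand): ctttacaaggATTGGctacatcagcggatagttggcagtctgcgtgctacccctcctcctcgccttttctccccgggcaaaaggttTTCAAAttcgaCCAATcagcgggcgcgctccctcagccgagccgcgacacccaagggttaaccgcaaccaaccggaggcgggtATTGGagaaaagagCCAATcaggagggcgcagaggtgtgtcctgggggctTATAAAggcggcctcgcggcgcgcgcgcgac
ASF1B (chr19:14136590-14136839, minus strand): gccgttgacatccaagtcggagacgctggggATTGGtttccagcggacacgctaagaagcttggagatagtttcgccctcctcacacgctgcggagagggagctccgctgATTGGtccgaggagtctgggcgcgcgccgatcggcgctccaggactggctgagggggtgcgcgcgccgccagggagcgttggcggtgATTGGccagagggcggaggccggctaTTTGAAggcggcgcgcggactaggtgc
Over these 250 bases before the start, a CCAAT box was present in 34 of 42 windows of core histone genes (81%), beside 32% of 35116 windows of all genes, and a TATA box in 71.4% beside 10.7%. The octamer was found in 42.9% of core windows, beside 1.63% of all windows, and the CHR letters in 35.7% beside 13.3%. The types differed in their elements. All 12 H2B and all 12 H2A windows held a CCAAT box, and the octamer occurred in 9 of the 12 H2B windows (75%) and 8 of the 12 H2A windows (66.7%). Of 9 H4 windows, 1 held a CCAAT box and 0 held the octamer, and the H4C5 window printed above held none of the 4 motifs. Neighbouring H2A and H2B genes share windows, because several are transcribed in opposite directions from starts 233 to 248 bases apart, so these windows are not independent. Windows were matched for 50 of the 51 genes, and H4C3 is named only. A match shows that the letters occur in the window and nothing about binding.

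**Figure D1:**
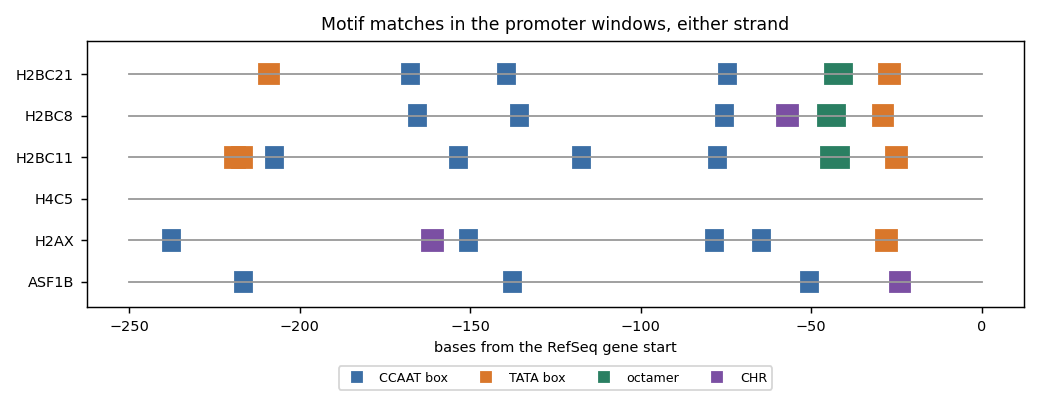
Positions of the 4 motifs in the promoter windows of the 6 genes printed above. The horizontal axis is the distance in bases from the RefSeq gene start, each line is a window of 250 bases, and coloured boxes are matches on either strand. The H2B genes share a TATA box next to an octamer near the start, while H4C5 has no box.

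Signals were background corrected, quantile normalized and put on the log2 scale, and a level below is such a value for 1 probe on 1 array. An array detected from 17925 to 19856 probes, and 24894 probes entered the test. A change is a difference of mean log2 levels, over 3 dilazep and 4 control arrays of a line. Its standard error (SE) uses a variance pooled over all 14 arrays, so it is the same in both lines for a given probe. A probe was called at a limma adjusted p under 0.05 (Benjamini-Hochberg over all 24894 probes), and every adjusted p below comes from that fit. Array precision is limited by the number of arrays. Of 10 luminal prostate markers 8 had an annotated probe, and 7 of these were detected on all arrays. KLK3 was the exception, with no LNCaP-abl dilazep array above background. Of 2 endothelial markers with a probe, PECAM1 was not detected on any array, while VWF was detected on every array but 2 of the LNCaP-abl dilazep arrays. Mean VWF levels in LNCaP were 8.38 with H2O, 8.56 with DMSO and 6.64 with dilazep, and in LNCaP-abl 5.74, 5.83 and 4.89. The fibroblast marker COL1A1 was detected on all LNCaP arrays and on 4 of 7 LNCaP-abl arrays, at means of 5.23 to 6.11. The immune marker CD14 was detected on 1 array, and VIM and CD68 were detected on all 14. The part of these genes in the histone results was not tested. Proliferation genes moved with dilazep: 18 of 18 measured S phase genes fell in LNCaP-abl (median change -2.79) and 14 of 18 in LNCaP (median -0.61). All 16 G2/M genes fell in LNCaP-abl (median -3.55), as did 15 of 16 in LNCaP (median -1.29). Their part in the histone results was not tested. For members that fell, fewer cells in S phase and less RNA per cell cannot be told apart in such bulk RNA. In LNCaP-abl 29 of the 44 core histone probes rose instead (median change of the 44, 0.95).

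In LNCaP-abl, dilazep was followed by higher signal of most core histone probes, while SLBP, the chaperones, H2AX, H2AZ1, H2AZ2 and H4C3 fell. Of the 59 tested member probes 32 rose and 12 fell, 54.2% and 20.3%. Among all probes 18.6% were called higher and 17.3% lower, so the share of lower calls was near the background. The median change was 0.55 over the members and 0.02 over all probes. Among the 44 core probes 29 rose and 3 fell, with a median of 0.95 and a range from -2.83 to 2.39. H2A probes rose most uniformly, 11 of 13 with none called lower, followed by H4 (7 of 9 rose, 1 fell), H2B (7 of 14 rose, 2 fell) and H3 (4 of 8 rose, none fell). The rise was not limited to a single cluster: 9 of 14 core and linker probes on chromosome 1 rose and none fell, and 20 of 30 on chromosome 6 rose while 3 fell. With median scaling in place of quantile normalization, 30 member probes rose and 14 fell, while 35.5% of all calls were higher in place of 51.9%.

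H2BC21, an H2B gene of the chromosome 1 cluster whose promoter is printed above, gave levels of 11.09 and 10.87 with H2O and 11.16 and 10.95 with DMSO in LNCaP-abl. With dilazep its levels were 13.33, 13.27 and 13.34. All 3 dilazep arrays lay above all 4 control arrays, by more than the whole spread of either group. The change was 2.30 (SE 0.12, adjusted p = 2.32e-08), which is 4.92-fold.

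The H2B gene H2BC5, on chromosome 6, had 3 probes, and each rose. On the probe that changed most, levels went from 5.96 and 5.38 (H2O) and 5.59 and 5.48 (DMSO) to 7.87, 7.78 and 7.83, a change of 2.23 (SE 0.12). The other probes gave 1.97 (SE 0.11) and 1.73 (SE 0.09). All 3 probes thus placed the dilazep arrays above the controls, with adjusted p of 4.04e-08, 4.85e-08 and 1.99e-08.

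H4 genes showed similar separations. H4C5 stood at 6.77 and 7.07 with H2O, 6.94 and 6.71 with DMSO, and 9.26, 9.15 and 9.04 with dilazep, a change of 2.28 (SE 0.12, adjusted p = 2.51e-08). H4C14 stood at 7.84, 7.80, 7.86 and 7.87 in the 4 controls and at 10.17, 9.98 and 9.98 with dilazep, a change of 2.20 (SE 0.14, adjusted p = 9.51e-08). No control array of either gene reached a dilazep array. H4C15, a near-identical neighbour copy of H4C14, changed by 1.92 (SE 0.13), and which of these copies the probes measured is uncertain. The largest change, 2.39 (SE 0.20), was that of H4C8, whose controls were less even (7.80 to 8.68, against 10.56 to 10.67 with dilazep). H4C8 is named after its value was seen.

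Among H2A genes, H2AC19 rose by 1.41 (SE 0.09, adjusted p = 1.57e-07), from 11.89 to 12.04 in the 4 controls to 13.32, 13.44 and 13.39. It is a near-identical copy of H2AC18, whose probes changed by 1.67 and 1.32. H2AC6, also named after its values were seen, changed by 1.99 (SE 0.22), from levels of 6.92 to 7.94 in controls to 9.37 to 9.72. Some called rises started from no signal. H2AC7, H2BC9, H2AC8 and H2AC4 were not well above background on any LNCaP-abl control array. With dilazep, H2AC8 and H2AC4 were each above background on only 1 of 3 LNCaP-abl arrays. Against the lowest detected level, H2BC9 was at least 1.82-fold higher with dilazep, H2AC7 at least 1.45-fold and H2AC8 at least 1.01-fold, and H2AC4 allowed no bound. These 4 were named after their values were seen.

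H4C3 went the other way. Its LNCaP-abl levels were 12.85 and 12.81 with H2O, 12.79 and 13.01 with DMSO, and 10.01, 10.04 and 10.03 with dilazep. The 3 dilazep arrays were nearly equal and lay below every control, a change of -2.83 (SE 0.30, adjusted p = 1.11e-05) or 7.13-fold. The pooled SE includes the wide spread of the LNCaP dilazep arrays (SD 0.91). The H2B genes H2BC11 (-0.73, SE 0.19, adjusted p = 0.00985) and H2BC12 (-0.32, SE 0.09, adjusted p = 0.0148 for 1 probe) fell less. The other H2BC12 probe gave -0.35 and was not called (adjusted p = 0.112). The H2BC11 call ended with DMSO alone as the control (-0.53, adjusted p = 0.11), in the authors' processed values (-0.17, adjusted p = 0.0773) and without dilazep replicate 2 (-0.60, adjusted p = 0.0518). The H2BC12 call ended with H2O alone (adjusted p = 0.0824) and without dilazep replicate 1 (adjusted p = 0.0666).

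The linker histone genes differed among themselves. H1-2, a clustered linker gene, went from 12.53 and 12.39 with H2O and 12.25 and 12.43 with DMSO to 13.69, 13.79 and 13.76 with dilazep. This is a change of 1.35 (SE 0.10, adjusted p = 3.12e-07), with no overlap, and H1-2 is named here after its value was seen. H1-10, a linker gene outside the clusters, on chromosome 3, changed by -0.76 (SE 0.10) and fell at an adjusted p of 7.74e-05, and H1-1 was not called (0.37, adjusted p = 0.257).

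All 3 H2A variant genes among the members fell in LNCaP-abl. H2AX, whose protein is phosphorylated around DNA breaks, had levels of 10.13 and 10.15 with H2O, 10.20 and 10.12 with DMSO, and 7.75, 7.75 and 7.46 with dilazep. The controls agreed within 0.1, and the dilazep arrays lay far below them, a change of -2.50 (SE 0.12, adjusted p = 8.18e-09) or 5.66-fold. H2AZ2 changed by -1.23 (SE 0.13, adjusted p = 7.84e-06), with 2 of 3 dilazep arrays still above background, and H2AZ1 by -0.77 (SE 0.10, adjusted p = 7.22e-05). Both encode forms of H2A.Z, a variant found at promoters. The genes of the variant H3.3, which is deposited outside replication, were not called lower. H3-3B changed by 0.54 (SE 0.16, adjusted p = 0.0165), and the 3 H3-3A probes by 0.28 (adjusted p = 0.0307), 0.25 and -0.02. The H3-3B call ended with median scaling (0.37, adjusted p = 0.122) and without any of H2O replicate 3 (adjusted p = 0.0514), DMSO replicate 1 (0.061) or dilazep replicate 1 (0.0646). The H3-3A call ended with median scaling (0.10, adjusted p = 0.533), with either vehicle alone (adjusted p = 0.0929 and 0.0596), and without H2O replicate 3, DMSO replicate 3 or any dilazep replicate (adjusted p = 0.0544 to 0.102).

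ASF1B, both CAF-1 subunit genes and SLBP fell in LNCaP-abl. ASF1B stood at 7.98 and 7.98 with H2O, 8.37 and 8.41 with DMSO, and 4.75, 5.07 and 5.32 with dilazep. No dilazep array was well above background, so ASF1B was at least 7.15-fold lower (adjusted p = 1.45e-08). Levels of CHAF1A were 7.26, 6.60, 7.15 and 7.20 in controls and 4.90, 4.70 and 4.64 with dilazep, again not well above background, at least 3.25-fold lower (adjusted p = 1.87e-05). CHAF1B fell from 8.68, 8.62, 8.53 and 8.60 to 6.76, 6.81 and 6.36, a change of -1.96 (SE 0.13, adjusted p = 1.62e-07). For none of these genes did a dilazep array reach a control array. Both SLBP probes fell, with changes of -0.73 (SE 0.09, adjusted p = 3.59e-05) and -0.66 (SE 0.16, adjusted p = 0.00689). No dilazep array of either probe overlapped a control.

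Among genes that work with the members, most chaperone genes fell as well. Of 20 measured chaperone and nucleosome assembly genes outside the members, 17 fell and none rose (median -0.82), led by HJURP (-4.10), the chaperone of centromeric CENPA, the helicase subunit MCM2 (-3.81) and NAP1L1 (-2.64). Of 14 measured genes for histone mRNA transcription and end processing, 6 fell and none rose, with CSTF2 (-1.10), CPSF3 (-0.90) and ERI1 (-0.74) having the smallest p. Among 5 other variant genes, CENPA, the centromeric H3, fell (-3.38, adjusted p = 6.66e-09), while H2AJ (0.96) and H3-5 (0.40) rose.

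**Figure D2:**
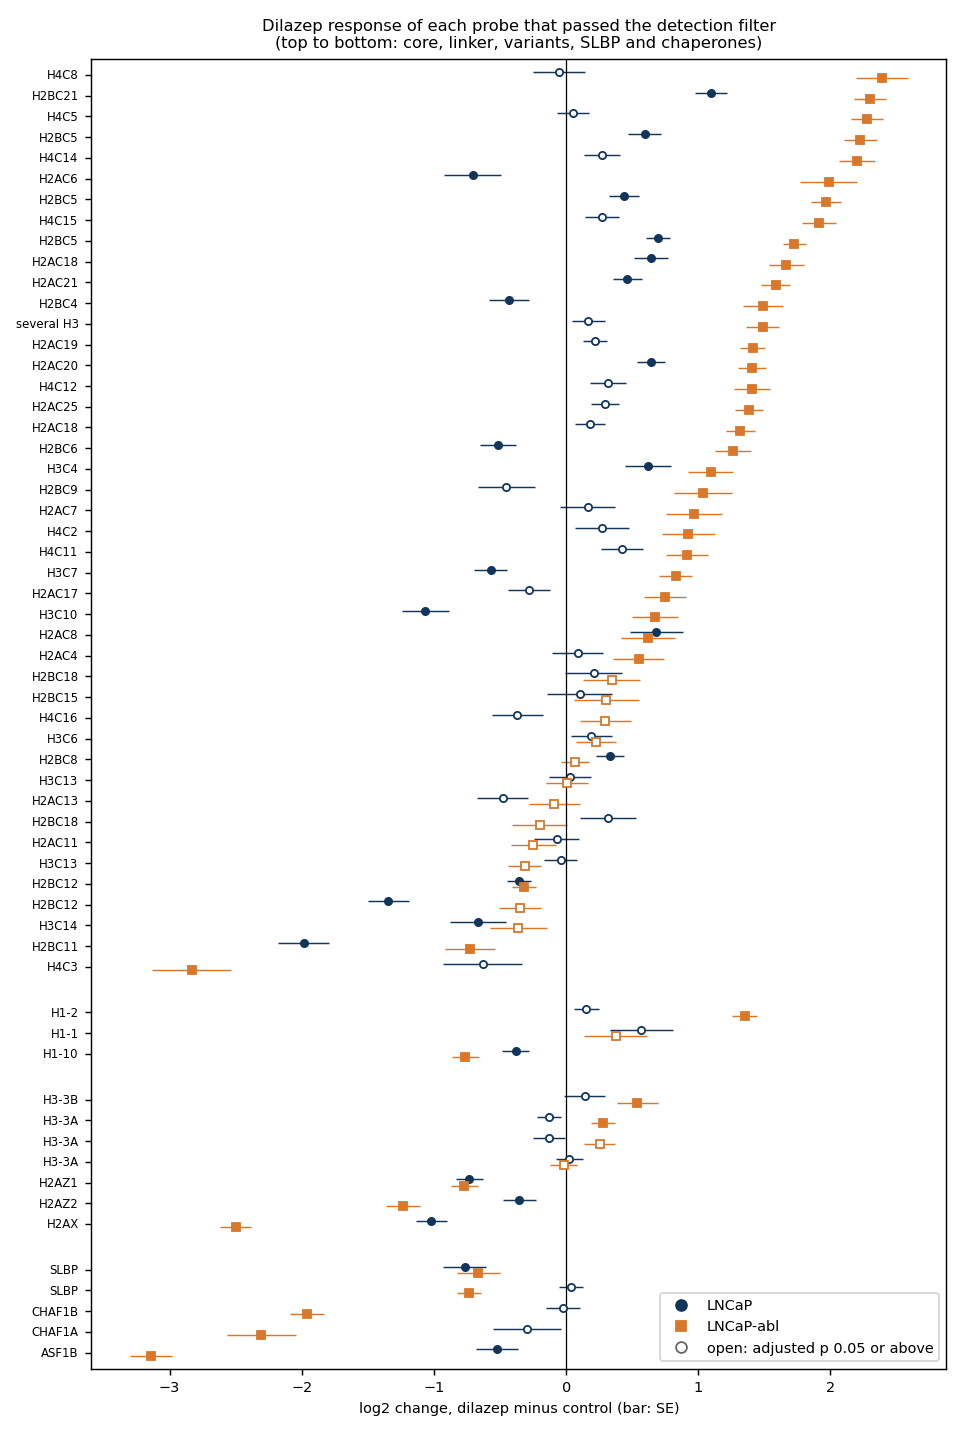
Change with dilazep of the 59 member probes that passed the filter, in LNCaP (blue circles) and LNCaP-abl (orange squares). The horizontal axis is the log2 change against the controls, bars are SE, and open symbols were not called. In LNCaP-abl 29 of 44 core probes lie to the right with filled symbols, and SLBP, CHAF1A, CHAF1B and ASF1B lie to the left. Probes not above background in a group are drawn at their fitted values.

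In LNCaP the members split more evenly, with 15 probes falling and 10 rising. The calls were 25.4% lower and 16.9% higher, beside 16.3% lower and 15.7% higher among all probes, and the share of higher calls was thus near the background. The median change was 0.04. Among the 44 core probes 9 fell and 10 rose, 5 of each among the 14 H2B probes, 1 lower and 4 higher among the 13 H2A probes, 3 lower and 1 higher among the 8 H3 probes, and none in either direction among the 9 H4 probes. With the DMSO arrays alone as the control 6 member probes rose in place of 10. With the replicate numbers of the labels as a block, 9 fell in place of 15.

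The H2B gene H2BC11 changed most. Its levels were 9.25 and 9.44 with H2O, 9.34 and 9.43 with DMSO, and 7.55, 7.66 and 6.93 with dilazep, a change of -1.99 (SE 0.19, adjusted p = 1.5e-05) or 3.96-fold. Every dilazep array lay below every control. H2BC12 fell too, but its probes differed in size: 1 gave -1.34 (SE 0.16, adjusted p = 6.56e-05) and the other -0.35 (SE 0.09, adjusted p = 0.00981). Median scaling ended the call of the smaller value (-0.28, adjusted p = 0.0665). H3C10 (-1.06, SE 0.18, adjusted p = 0.000633), H3C7 (-0.57, SE 0.13) and H2BC6 (-0.52, SE 0.14) also fell, the last not called without dilazep replicate 1 (-0.43, adjusted p = 0.053).

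H2AC6 moved opposite to its LNCaP-abl response, with levels of 10.30 and 9.98 (H2O), 9.63 and 10.09 (DMSO) and 9.69, 9.27 and 8.92 (dilazep). The groups overlapped on 1 dilazep array, and the change was -0.71 (SE 0.22, adjusted p = 0.0259). It was no longer called with DMSO alone (-0.57, adjusted p = 0.14), or without H2O replicate 1, DMSO replicate 3, dilazep replicate 2 or dilazep replicate 4 (adjusted p = 0.0701 to 0.121).

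H2BC21 rose in LNCaP as well, from 11.14 and 11.59 with H2O and 11.35 and 11.52 with DMSO to 12.47, 12.47 and 12.55, a change of 1.09 (SE 0.12, adjusted p = 4.05e-05). Its dilazep arrays were tightly grouped above all controls. The 3 H2BC5 probes rose by 0.70, 0.60 and 0.44, the last not called without dilazep replicate 1 (0.34, adjusted p = 0.0513). H2AC20, whose start lies 236 bases from that of H2BC21, rose by 0.64 (SE 0.11, adjusted p = 0.000668). H2AC18 rose on 1 probe (0.64, adjusted p = 0.0025) and was not called on the other (0.18, adjusted p = 0.257). H2AC21 (0.46, adjusted p = 0.00605) and H3C4 (0.62, adjusted p = 0.0156) rose, but neither was called with DMSO alone (adjusted p = 0.102 and 0.0832), and H3C4 was not called without H2O replicate 1 or dilazep replicate 4 (adjusted p = 0.058 and 0.0654).

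H4C3 had the largest SD of any member among the LNCaP dilazep arrays. Its levels were 13.01 and 13.27 with H2O, 12.95 and 12.88 with DMSO, and 11.78, 11.97 and 13.44 with dilazep. Dilazep replicate 4 lay above every control and the other dilazep arrays below every control, and the change of -0.63 (SE 0.30) was not called (adjusted p = 0.137). This gene is named here after its values were seen.

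Of the linker genes H1-10 fell, with a change of -0.38 (SE 0.10, adjusted p = 0.0125). Neither median scaling (-0.29, adjusted p = 0.0564) nor DMSO alone as the control (-0.34, adjusted p = 0.0643) kept that call. H1-2 was not called (0.15, adjusted p = 0.261).

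The H2A variant genes among the members fell in LNCaP too, and the H3.3 genes were not called. H2AX had levels of 10.17 and 10.25 with H2O, 10.50 and 10.58 with DMSO, and 9.56, 9.36 and 9.15 with dilazep, a change of -1.02 (SE 0.12, adjusted p = 5.78e-05). H2AZ1 went from 14.36 and 14.25 with H2O and 14.13 and 14.21 with DMSO to 13.61, 13.39 and 13.52, a change of -0.73 (SE 0.10, adjusted p = 0.000213). In neither gene did the groups overlap. H2AZ2 was just past the threshold (-0.35, SE 0.13, adjusted p = 0.0481). Its call ended in most alternatives, among them H2O alone (-0.00317, adjusted p = 0.993), median scaling (adjusted p = 0.0698), the authors' processed values (-0.08, adjusted p = 0.117) and the loss of LNCaP H2O replicate 1 (-0.22, adjusted p = 0.161). H3-3B changed by 0.14 (adjusted p = 0.563), and the H3-3A probes by 0.03, -0.13 and -0.13.

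Of ASF1B, CHAF1A and CHAF1B, ASF1B alone was called in LNCaP. Its levels were 7.82 and 8.40 with H2O, 8.08 and 8.35 with DMSO, and 7.64, 7.65 and 7.63 with dilazep, a change of -0.52 (SE 0.16, adjusted p = 0.0232). The dilazep arrays lay below all controls, but the call ended with H2O alone (-0.47, adjusted p = 0.0875), under median scaling (-0.43, adjusted p = 0.0614) and without H2O replicate 3, DMSO replicate 3 or any of the dilazep arrays (adjusted p = 0.0557 to 0.0814). CHAF1A (-0.30, adjusted p = 0.442) and CHAF1B (-0.03, adjusted p = 0.915) were not called. CHAF1B levels were 8.22, 8.20, 8.30 and 8.16 in controls and 7.99, 8.22 and 8.37 with dilazep, on both sides of the controls. The SLBP probes disagreed: 1 fell, with a change of -0.77 (SE 0.16, adjusted p = 0.00351), from 9.26 to 9.46 down to 8.29 to 8.96. The other gave 0.04 (adjusted p = 0.798), with dilazep levels of 11.08 to 11.18. Of 20 other chaperone genes 5 fell and 1 rose, HJURP (-1.22) and HAT1 (-1.07) having the smallest p. Of 14 transcription and end processing genes none fell and CPSF2 rose (0.68).

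**Figure D3:**
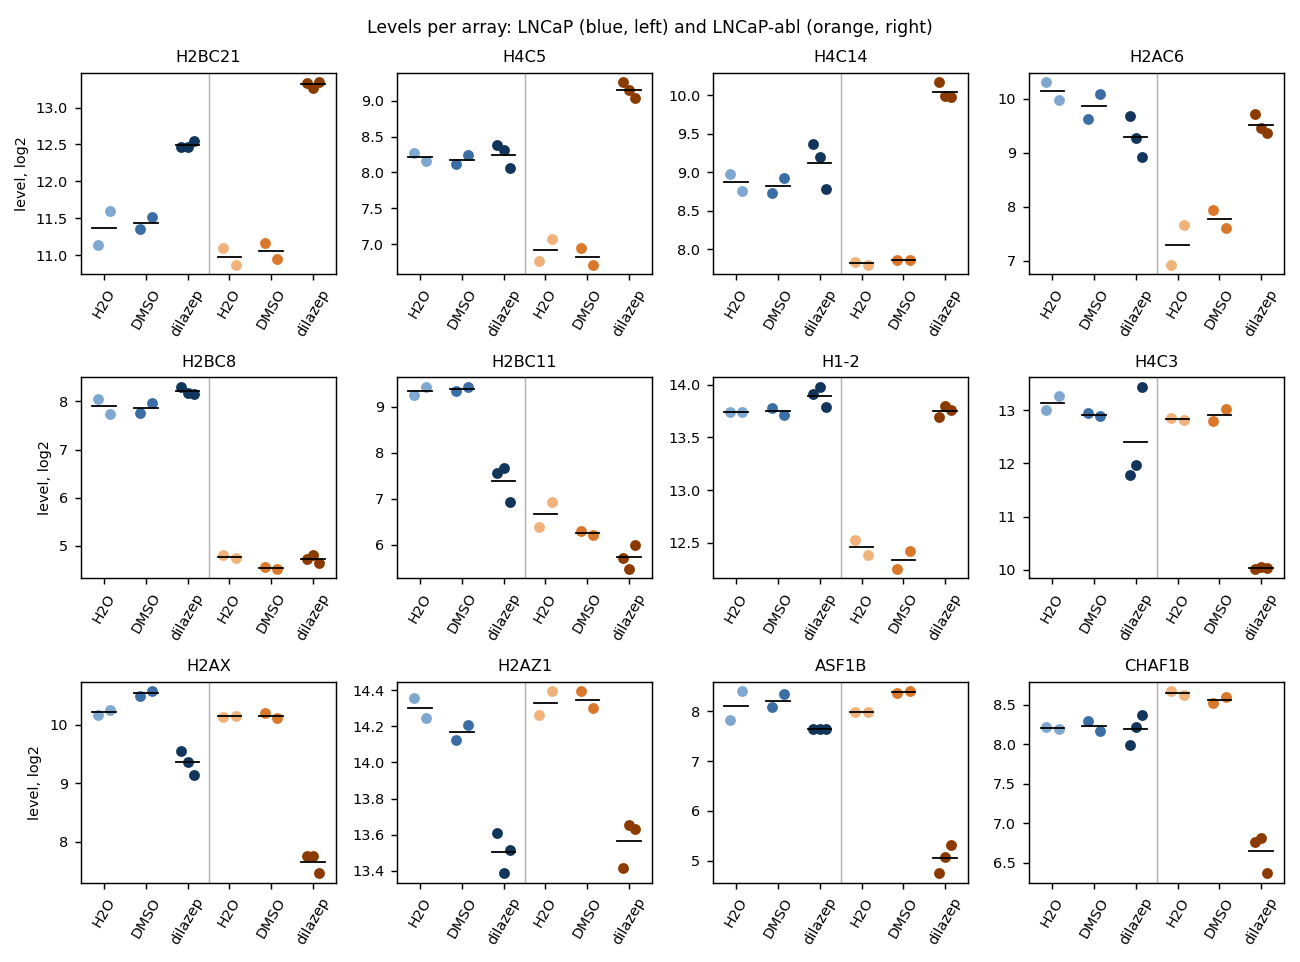
Levels of 12 member probes on the 14 arrays. Each point is an array, horizontal lines are group means, the vertical axis is the log2 level of that probe with a range of its own, and the grey line parts LNCaP (left, blue) from LNCaP-abl (right, orange). H2BC21, H4C5, H4C14, H2AC6 and H1-2 lie high in LNCaP-abl with dilazep, while H4C3, H2AX, ASF1B and CHAF1B lie low there.

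The responses themselves differed between the lines for 34 of the 59 members. Subtracting the LNCaP change from the LNCaP-abl change and testing that difference in the same fit gave 27 member probes with a more positive and 7 with a more negative response in LNCaP-abl (45.8% and 11.9%). Among all probes 11.3% were called in each direction, so the negative share is near the background. Of the 44 core probes 25 were more positive and 1 more negative, with a median difference of 1.03. The median over the members was 0.49 and over all probes 0.01. With median scaling the median of all probes moved to -0.13 and 26% of all calls were higher in place of 50.2%. The counts of members were then 25 and 8, with a median of 0.44.

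H4C5 differed by 2.22 (SE 0.17, adjusted p = 3.69e-06), the LNCaP-abl change being 2.28 and the LNCaP change 0.05. H4C14 (1.93), H4C15 (1.64), H2BC6 (1.78), H2AC19 (1.19) and H2BC4 (1.92) differed in the same direction. H2BC4 and H2BC6 had changed in opposite directions in the lines: H2BC4 by -0.43 in LNCaP (adjusted p = 0.0453, with overlap) and 1.49 in LNCaP-abl, H2BC6 by -0.52 and 1.26. The H3 genes H3C10 (-1.06 and 0.67) and H3C7 (-0.57 and 0.83), named here after their values were seen, had also been called in opposite directions. The H2BC5 probes differed by 1.63, 1.53 and 1.03, each being higher in both lines.

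Among genes with a more negative response in LNCaP-abl, ASF1B differed by -2.62 (SE 0.22, adjusted p = 8.17e-06), CHAF1A by -2.01 (SE 0.37), CHAF1B by -1.94 (SE 0.18) and H4C3 by -2.20 (SE 0.42, adjusted p = 0.00322). For ASF1B and CHAF1A the LNCaP-abl dilazep arrays were not well above background, and these differences rest on dim values. H2AX (-1.48, SE 0.17) and H2AZ2 (-0.88, SE 0.18) fell further in LNCaP-abl, the latter not called with DMSO alone (-0.55, adjusted p = 0.104). H2AZ1 gave nearly equal changes, and their difference of -0.04 (SE 0.14) was not called (adjusted p = 0.881). SLBP differed on 1 probe (-0.77, adjusted p = 0.00122) and not on the other (0.10, adjusted p = 0.804). H3-3A was called on 1 of 3 probes (0.41, adjusted p = 0.04), a call lost with either vehicle alone, with median scaling and without any of 12 single arrays, and H3-3B was not called (0.40, adjusted p = 0.226). In the S phase list 17 of 18 genes had a more negative response in LNCaP-abl (median difference -2.15). That is the direction of ASF1B and H4C3, and opposite to the 25 core probes with a more positive response. The part of this list was not tested.

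Under vehicle, LNCaP-abl had lower core histone signal than LNCaP. Comparing the control arrays, 36 of 59 member probes were lower in LNCaP-abl and 5 higher, 61% and 8.47%, beside 17.7% lower and 18.3% higher among all probes. Of the 44 core probes 35 were lower and none higher, with a median of -0.85. The 30 core and linker probes on chromosome 6 had a median of -1.23 and the 14 on chromosome 1 a median of -0.41. This comparison uses the same LNCaP-abl control arrays as the dilazep comparison in that line, so the members' values in both share those arrays.

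H2BC8, an H2B gene of chromosome 6, was detected in LNCaP and not in LNCaP-abl. Its LNCaP controls stood at 8.06, 7.74, 7.77 and 7.96 and its LNCaP-abl controls at 4.80, 4.75, 4.56 and 4.51, with no LNCaP-abl array of any treatment well above background. It was therefore at least 5.96-fold lower in LNCaP-abl (adjusted p = 1.38e-10), and with dilazep its levels there were 4.72, 4.80 and 4.65. The H2A gene H2AC8, whose start lies 233 bases from that of H2BC8, was also not well above background in LNCaP-abl controls and at least 3.01-fold lower (adjusted p = 1.8e-06), a gene chosen after its values were seen.

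H2BC11 was lower by -2.91 (SE 0.18, adjusted p = 8.13e-08), from 9.25 to 9.44 in LNCaP to 6.22 to 6.92 in LNCaP-abl controls. H2AC6 was lower by -2.47 (SE 0.20, adjusted p = 1.24e-06), the 3 H2BC5 probes by -1.94, -1.75 and -1.29, H1-2 by -1.34 (SE 0.09) and H4C5 by -1.32 (SE 0.11, adjusted p = 1.68e-06). For each of these the LNCaP and LNCaP-abl controls did not overlap. Set side by side with no test, because line and treatment both differ, H2AC6 in dilazep-treated LNCaP-abl (9.37 to 9.72) stood near LNCaP controls (9.63 to 10.30). H1-2 (13.69 to 13.79 beside 13.71 to 13.78) did likewise, as did an H2BC5 probe (10.32 to 10.45 beside 10.28 to 10.43). The other H2BC5 probes (10.29 to 10.395 beside 9.85 to 9.97, and 7.78 to 7.87 beside 7.20 to 7.52) stood above LNCaP controls. So did H4C5 (9.04 to 9.26 beside 8.11 to 8.28). H2BC8 (4.65 to 4.80 beside 7.74 to 8.06) stayed below LNCaP controls, as did H2BC11 (mean 5.73 beside 9.25 to 9.44).

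Of the variant, SLBP and chaperone members none was called lower. H2AX (-0.22, adjusted p = 0.132), H2AZ1 (0.10), ASF1B (0.02), CHAF1A (0.22), H3-3B (0.24) and the H3-3A probes (-0.20 to -0.07) were not called. H2AX was called lower without background correction (-0.205, adjusted p = 0.0353) and in the authors' processed values (-0.1995, adjusted p = 0.0189). Both SLBP probes were higher in LNCaP-abl, 1 standing at 11.88, 12.04, 11.90 and 11.91 in LNCaP-abl controls and no higher than 11.17 in LNCaP controls (0.83, SE 0.08, adjusted p = 7.55e-06), the other by 0.68 (SE 0.15, adjusted p = 0.00401). The latter was not called with H2O alone (0.55, adjusted p = 0.0868). H2AZ2 (0.45), CHAF1B (0.39) and H1-10 (0.38) were called higher with the pooled vehicles (adjusted p = 0.00863, 0.023 and 0.00713). With DMSO alone none of these 3 was called (adjusted p = 0.642, 0.189 and 0.0812), and CHAF1B was also not called with H2O alone (adjusted p = 0.0777) or without any of 5 single arrays (adjusted p = 0.0524 to 0.0743). Of the measured S phase genes 8 of 18 were higher in LNCaP-abl controls and 1 lower, and of the chaperone genes 10 of 20 were higher and 2 lower, with NAP1L1 at 2.44. Of 5 other variant genes 3 were lower, MACROH2A2 (-1.26), H2AJ (-0.89) and H3-5 (-0.81).

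**Figure D4:**
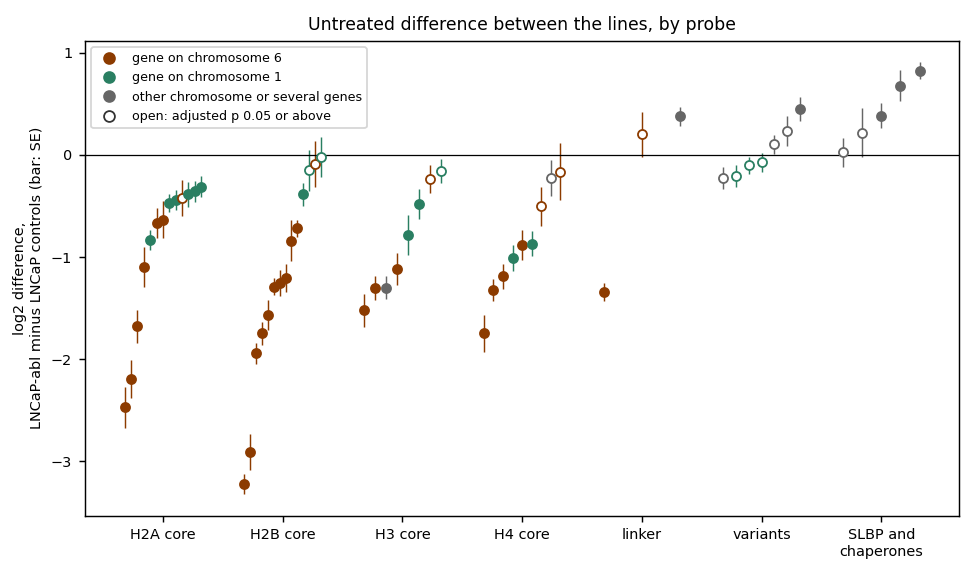
Difference between LNCaP-abl and LNCaP control arrays for each member probe that passed the filter, by histone type. The vertical axis is the log2 difference (LNCaP-abl minus LNCaP), bars are SE, colours mark the chromosome and open symbols were not called. Filled core symbols all lie below 0, with H2BC11 at -2.91 and H2AC6 at -2.47. Probes not above background in LNCaP-abl, H2BC8 among them, are drawn at their fitted values, which are not measured sizes.

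The comparison of the vehicles gave no calls. DMSO against H2O, averaged over both lines, gave 0 called member probes and 0 called probes in all (0% in each direction in limma). At an unadjusted p under 0.05 there were 2 member probes, H2AC18 (0.38, 1 of its probes) and H2AZ2 (0.38), and 1117 of all 24894. H2AZ2 levels in LNCaP were 6.06 and 5.52 with H2O and 6.51 and 6.46 with DMSO, so that its LNCaP change with dilazep depended on the vehicle, as given above.

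In the authors' processed table the sizes were smaller. Over the 72 called values given above for the 4 comparisons by the naming rule, the median ratio of its sizes to the reported ones was 0.696, and 34 of the 72 moved by more than 1.5 times. Of these 72 values 70 stayed called there in the same direction. Without background correction the median ratio was 0.79 and 20 of the 72 moved by more than 1.5 times.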

How the data were processed

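Total RNA from 14 samples was labelled with biotin and hybridised to Illumina BeadChip arrays. Per the file headers, the deposited signal table gives each probe and array a linear intensity that was not normalized, with its detection p-value in the next column. It lists 47422 rows, of which 99 are second listings of a probe. A further table deposited by the authors holds processed log2 values. They were made with lumi, per the submitters' processing notes, and the version and settings are not stated there. That table was used as an alternative only.

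Gene names came from the platform annotation, updated through Entrez identifiers. Signals were corrected with normexp from the detection p-values, quantile normalized and log2 transformed (neqc, offset 16, limma 3.58.1, R 4.3.3). Probes with a detection p-value under 0.05 on at least 2 arrays entered lmFit and eBayes, with 1 mean per group over all 14 arrays. The 5 contrasts, tested two-sided, were dilazep against the mean of both vehicle means in each line, the difference of these responses, the control arrays of LNCaP-abl against those of LNCaP, and DMSO against H2O. Where no array of a group detected a probe, the fold is a bound, "at least N-fold". For the dimmer group it takes, on each array, the probe's own level or the lowest level of any detected probe, whichever is higher. The fit was tested on simulated data. Plots were made with matplotlib 3.10.9 under Python 3.11.15.

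The naming rule took SLBP, CHAF1A, CHAF1B, ASF1B, the H2A variants and the H3.3 genes in each comparison, and of the other members up to 8 called probes per direction with the smallest p. The context lists give counts and up to 3 genes with the smallest p. The members and lists were chosen with earlier results of these data known. Alternatives covered normalization, background correction, the authors' values, the detection filter, 1 probe per gene, either vehicle alone, a replicate block, the variance model, array weights and leaving out each array.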

Additional observations from a re-analysis of the deposited data

Results flagged for a closer look

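The response to dilazep differed between the lines, by the test of the difference itself in limma, for 27 member probes with a more positive and 7 with a more negative response in LNCaP-abl. These are 45.8% and 11.9% of the 59 tested, beside 11.3% of all probes in each direction, so the negative share is near the background. Among the named core genes with a more positive response, the LNCaP-abl change minus the LNCaP change was 2.22 for H4C5, 1.93 for H4C14, 1.92 for H2BC4, 1.78 for H2BC6, 1.64 for H4C15 and 1.19 for H2AC19. It was 1.63, 1.53 and 1.03 for the 3 H2BC5 probes. Of the variant genes, H3-3A gave 0.41 on 1 of 3 probes, a call that ended with median scaling, with either vehicle alone, with the replicate block and without any of 12 single arrays.

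Among genes with a more negative response in LNCaP-abl, the difference was -2.20 for H4C3, -1.94 for CHAF1B, -1.48 for H2AX, -0.88 for H2AZ2 and -0.77 for 1 of the SLBP probes. The fitted differences of ASF1B (-2.62) and CHAF1A (-2.01) rest on LNCaP-abl dilazep arrays of which none was above background, and are not measured sizes. Groups held 2 or 3 arrays, so no array was tested as an outlier.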

How the results depend on the processing

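No value of a named probe changed sign as a called value under any alternative. Counts of called members stayed within 1.5 times of the reported ones, with these exceptions. In LNCaP, 6 probes rose with DMSO alone as the control in place of 10. Between the lines, 3 probes were higher with H2O alone and 2 with DMSO alone in place of 5. With the replicate numbers as a block, 9 probes fell in LNCaP in place of 15. Correlations of same-numbered arrays across groups ran from -0.165 to 0.186 and 1 of 22 exceeded 0.1. They were taken on deviations from group means, which mirror each other in groups of 2 arrays. The 22 values are therefore not independent and cannot decide whether the numbers pair the arrays. With the block, 64 of 72 called values stayed called. In LNCaP it ended the calls of ASF1B (limma adjusted p = 0.111), H2AZ2 (0.16), H1-10 (0.0791), H2AC6 (0.0684) and H2AC21 (0.0522). The H2BC12 probe with the smaller change also lost its call there (0.0592). The H3-3A calls in LNCaP-abl (0.0618) and for the difference (0.0688) ended as well.

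Leaving out single arrays gave 10 to 15 lower and 7 to 12 higher members in LNCaP, 11 to 13 and 28 to 32 in LNCaP-abl, 7 to 8 and 26 to 28 for the difference, and 31 to 37 and 4 to 5 between the lines. For DMSO against H2O both counts were 0 in every alternative. Of the 72 called values 65 stayed called with median scaling, 71 without background correction (20 of the 72 moving by over 1.5 times), 65 with H2O alone and 61 with DMSO alone. The cause of the changed calls was not tested. Probes near background have compressed changes, so the sizes of dim genes are the least certain.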

Other observations

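The members hold 5 pairs of genes transcribed away from each other with starts 233 to 979 bases apart, and the changes of partners are given here as values, with no test, as the pairs were looked at after the changes were known. H2BC21 and H2AC20 (236 bases between starts, chromosome 1) changed with dilazep by 1.09 and 0.64 in LNCaP and by 2.30 and 1.41 in LNCaP-abl. H2BC4 and H2AC6 (246 bases, chromosome 6) changed by -0.43 and -0.71 in LNCaP and by 1.49 and 1.99 in LNCaP-abl. In both of these pairs the partners were called in the same direction in each line. For H2BC4 and H2AC6 the LNCaP dilazep and control arrays overlapped. The H2AC6 call in LNCaP ended with DMSO alone as the control (adjusted p = 0.14) and without some single arrays.

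H3C7 and H2BC9 (979 bases) gave -0.57 and -0.45 in LNCaP, the latter not called. In LNCaP-abl H3C7 gave 0.83 and H2BC9, not above background in controls, was at least 1.82-fold higher, both called. H2BC8 and H2AC8 (233 bases) gave 0.33 and 0.68 in LNCaP, both called, and their LNCaP-abl controls were not well above background. H2BC11 and H2AC11 (248 bases) did not move alike: H2BC11 fell by 1.99 on the log2 scale in LNCaP, while H2AC11 gave -0.07 (adjusted p = 0.807). Between the vehicle controls of the lines both were lower in LNCaP-abl, by -2.91 and -1.68.

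The motif shares of core genes called higher in LNCaP-abl are given beside those of the other core genes, with no test made. The octamer was in 44.4% of 27 windows of the former and 40% of 15 windows of the latter. The TATA box was in 70.4% and 73.3%, the CHR letters in 33.3% and 40%, and the CCAAT box in 74.1% and 93.3%. Every core window without a CCAAT box was an H4 window, so the CCAAT shares follow the number of H4 windows in each group. The other core genes include H3C2 and H4C9, whose probes did not pass the detection filter and were not tested.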
